A study of Homo sapiens with 6 samples.

Results

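The genes described here are 32 targets of p53 other than CDKN1A and the BCL2 family, chosen by gene name from a set of feedback, repair, growth arrest and metabolic targets, out of 29638 gene rows in all. They were measured by RNA sequencing of AC16 cells, a human line made by fusing ventricular cardiomyocytes with SV40-transformed fibroblasts and labelled wild type. Of the 6 libraries, 3 were from cells given ethanol, the vehicle (control 1 to 3), and the other 3 were from cells exposed to a fatty acid (PA 1 to 3). The series title names palmitic acid and the treatment label Palmitelaidic Acid, an unsaturated relative of it; only the abbreviation PA is used below. Dose and time are not among the labels. Since separate cultures are not stated, p-values measure the spread between libraries, which may be technical.

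The transcription factor p53 is held low by MDM2, a ubiquitin ligase that is itself a p53 target, and is released from it by DNA damage, nucleolar and metabolic stress. Its targets arrest the cell cycle, repair DNA, adjust mitochondrial and sugar metabolism or promote cell death. The large T antigen of SV40 binds and inactivates p53, so its targets in SV40-derived cells can also depend on other factors. GDF15 and the GADD45 genes, for example, are also induced by the ATF4 and CHOP branch of the stress response, and BTG2, PLK2 and PLK3 by growth factor signals.

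p53 binds a 20-base site made of a pair of 10-base repeats, each with a CNNG core. The RefSeq promoter windows of 28 members (GRCh38.p14, 250 bases before to 50 after each start) were searched for the p53 consensus site without a spacer, with all core C and G bases present and at most 3 mismatches in 20 bases. The consensus reads the same on both strands. Such a match was found for 6 of the 28 members (21.4%), against 1.37% of the 27305 genes with a window and 1.12% of all 35116 windows. The members were chosen as p53 targets, so their share is a description and not a test. RRM2B, GADD45A, PHLDA3 and TP53INP1 had no entry. The 6 matches are shown because they are the letters closest to what p53 recognises, with the CNNG cores in capitals.
DDB2: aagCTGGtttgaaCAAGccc
AEN: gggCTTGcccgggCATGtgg
MDM2: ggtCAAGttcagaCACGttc
FDXR: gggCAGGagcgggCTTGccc
GDF15: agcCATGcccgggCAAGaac
SESN1: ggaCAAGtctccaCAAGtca

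The DDB2 match, at chr11:47214969-47214988 on the plus strand, differed from the consensus at 1 base. The matches of AEN (chr15:88621306-88621325, plus strand) and MDM2 (chr12:68808923-68808942, plus strand) differed at 2 bases. Those of FDXR (chr17:74872996-74873015, minus strand), GDF15 (chr19:18386186-18386205, plus strand) and SESN1 (chr6:109009018-109009037, minus strand) differed at 3. The GDF15 match lay 29 to 48 bases after the start, that of FDXR 21 to 2 bases before it and that of MDM2 94 to 75 bases before it. FDXR had 2 windows, and its distance is from the start in the window with this match. A match is a description of letters, not of binding.

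Levels are given as RPKM, reads scaled by transcript length and library size, as deposited by the authors. Sums per library lay between 733025 and 881369 RPKM and are not read depths, which are unknown. Differences between PA and control were tested with limma on log2(RPKM + 1). The fit covered the 14159 genes whose mean was at least 1 RPKM, and the threshold was an adjusted p of 0.05 over all of them. Of the 32 members 30 reached that mean. Cardiomyocyte markers were nearly absent: of 12 searched, 10 were listed and 1 reached a mean of 1 RPKM, with a summed level of 0.94 to 2.86 RPKM in control and 3.65 to 4.35 RPKM in PA. The PA sums thus lay above the control sums. TNNT2, cardiac troponin T, was listed at 0 in every control library and at 0.15, 0 and 0.07 RPKM in PA 1 to 3. The marker that reached the mean was TNNI3, cardiac troponin I. It was at 0.61, 1.39 and 0.74 RPKM in control and at 3.32, 3.99 and 2.6 RPKM in PA. Its log2 fold change was 1.18 (limma adjusted p = 0.0288), and it made up most of each PA sum. Exons of TNNI3 share 24.4% of their bases with another listed gene on the same strand. MYH6 (0.01, 0.06 and 0.03 RPKM in control) and NPPA (0.11, 0.17 and 0.25 RPKM in control) were at 0 in every PA library, lower without overlap. The other listed cardiomyocyte markers overlapped between groups. Of 10 fibroblast markers 9 reached that mean, and they summed to 2682.9 to 3188.8 RPKM in control and 2471.1 to 2567.3 RPKM in PA, lower without overlap. VIM made up most of that sum (means of 2331.9 and 2065 RPKM, with overlap). Of the 9 genes 8 had negative values, and COL3A1 (-1.37, limma adjusted p = 0.0073) and FAP (-0.74, limma adjusted p = 0.0281) fell. Summed smooth muscle markers (61.9 to 77.3 in control, 109.6 to 113.3 in PA), endothelial markers (27.5 to 40.4 and 56 to 60.2) and leukocyte markers (43.6 to 54.7 and 65.6 to 76.3), in RPKM, were higher in PA without overlap. Of these, 4 of 5, 2 of 6 and 2 of 5 genes reached a mean of 1 RPKM. TAGLN (means of 50.9 and 82.9 RPKM) and ACTA2 (16.6 and 23.9 RPKM) made up most of the smooth muscle sum. DES (0.81 and 1.66 RPKM) was also higher in PA without overlap, and CNN1 overlapped. MYH11 averaged 0.122 RPKM over all libraries and was lower in PA without overlap. EGFL7 made up most of the endothelial sum (means of 27.7 and 47.1 RPKM) and CD68 most of the leukocyte sum (47.6 and 64.9 RPKM). Exons of CD68 share 81.7% of their bases with another listed gene on the same strand. The endothelial markers CDH5 and VWF and the leukocyte markers PTPRC, CD3E and LYZ averaged at most 0.103 RPKM over all libraries. The part of these shifts in the results below was not tested, and in bulk samples a different mix of cells and a different amount of RNA per cell cannot be told apart.

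Among the p53 targets 3 rose in PA and 0 fell: BTG2, GDF15 and FDXR, each by about the same amount. These are 3 of 30 tested members (10%), where 2.84% of all genes tested rose and 1.97% fell. At an unadjusted p under 0.05 there were 9 of 30 members higher and 0 lower, where 13.5% of all genes tested were higher and 12.4% lower. The median log2 fold change was 0.11 over the 30 members and -0.02 over all genes tested, and 22 members had a positive and 8 a negative value. Over all genes tested, 6730 values were positive and 7429 negative. The 3 PA values lay above the 3 control values for 12 members (40%), against 16.7% of all genes tested, and below them for 2 members (6.67%), against 15.9%.

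**Figure D1:**
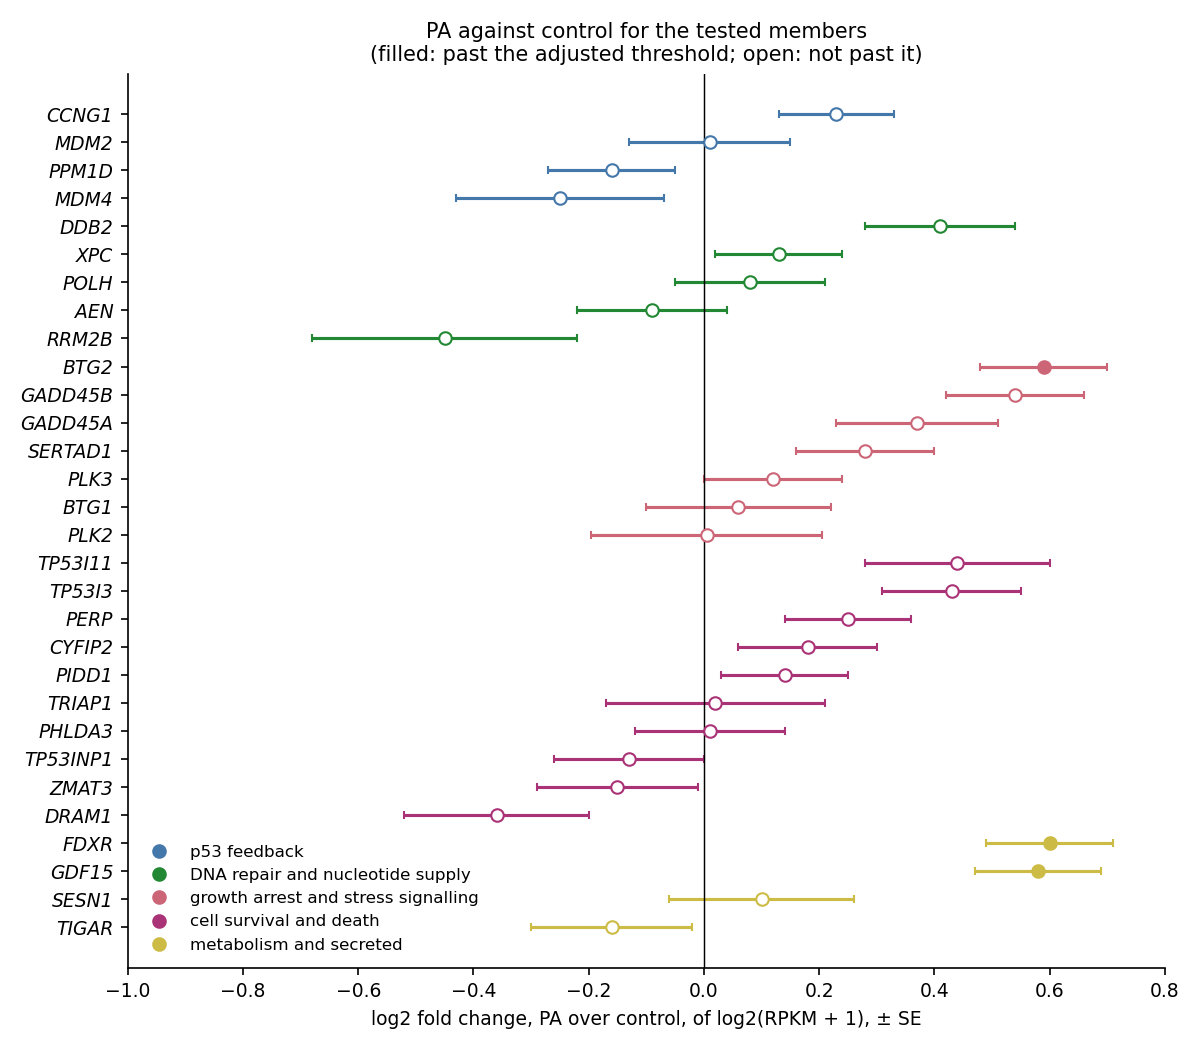
Log2 fold change of PA over control (x axis, log2(RPKM + 1) scale, bars are limma standard errors) for the 30 tested members, grouped and coloured by role. Filled points passed the adjusted threshold. They are BTG2 at 0.59, FDXR at 0.60 and GDF15 at 0.58, while RRM2B (-0.45) and DRAM1 (-0.36) lie farthest to the left and did not pass.

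FDXR, the mitochondrial ferredoxin reductase that passes electrons from NADPH to iron-sulfur proteins, was among the 3 members that rose. Its level was 17.3, 15.97 and 14.3 RPKM in control 1 to 3 and 22.5, 24.8 and 26.1 RPKM in PA 1 to 3. Every PA value thus lay above every control value, with means of 15.8 ± 1.5 and 24.5 ± 1.81 RPKM (SD, n = 3 per group), a ratio of 1.55. The log2 fold change was 0.60 ± 0.11 (SE, limma adjusted p = 0.0343).

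GDF15, a secreted cytokine of the TGF-beta superfamily that rises under cell stress and acts on appetite through a brainstem receptor, was at 13.3, 14.9 and 11.95 RPKM in the control libraries and at 20.7, 20.1 and 20.4 RPKM in the PA libraries. The PA libraries were closely alike, with a coefficient of variation of 1.54%, against 10.9% in control. The log2 fold change was 0.58 ± 0.11 (limma adjusted p = 0.0343).

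BTG2, an antiproliferative protein that brings the CCR4-NOT deadenylase to messenger RNAs, was low but even within groups. It was at 4.28, 4.06 and 4.16 RPKM in control and at 7.01, 6.86 and 6.40 RPKM in PA, a ratio of means of 1.62. The log2 fold change was 0.59 ± 0.11 (limma adjusted p = 0.0333). At levels this low the added 1 RPKM compresses the change: with a pseudocount of 0.1 the value was 0.68.

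The direction of these 3 genes held with each library left out, but most of the calls were lost. Calls over all genes dropped as well, from 681 to between 10 and 364. With each library left out in turn, the limma adjusted p ran from 0.0465 to 0.142 for BTG2, from 0.0532 to 0.145 for FDXR and from 0.0557 to 0.146 for GDF15. BTG2 passed without PA 3, and no member passed without control 1, control 2, control 3, PA 1 or PA 2. The calls were also lost with no filter on low values (limma adjusted p = 0.0807 for BTG2, 0.0803 for FDXR and 0.0773 for GDF15) and when libraries were rescaled to a common sum, where the log2 fold changes were 0.50 for FDXR, 0.50 for BTG2 and 0.48 for GDF15 with limma adjusted p-values of 0.0558, 0.0733 and 0.057. By class, the median log2 fold change of protein-coding genes was 0.07 for transcripts up to 1000 nt and -0.15 above 4000 nt, and -0.14 below 40% and 0.12 above 60% GC. Length and GC here are medians over the annotated transcripts of a gene, which may differ from the transcripts present in these cells. With a trend in length and GC content removed from each library, the fold changes were 0.47 for FDXR, 0.44 for GDF15 and 0.63 for BTG2, and all of them passed.

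**Figure D2:**
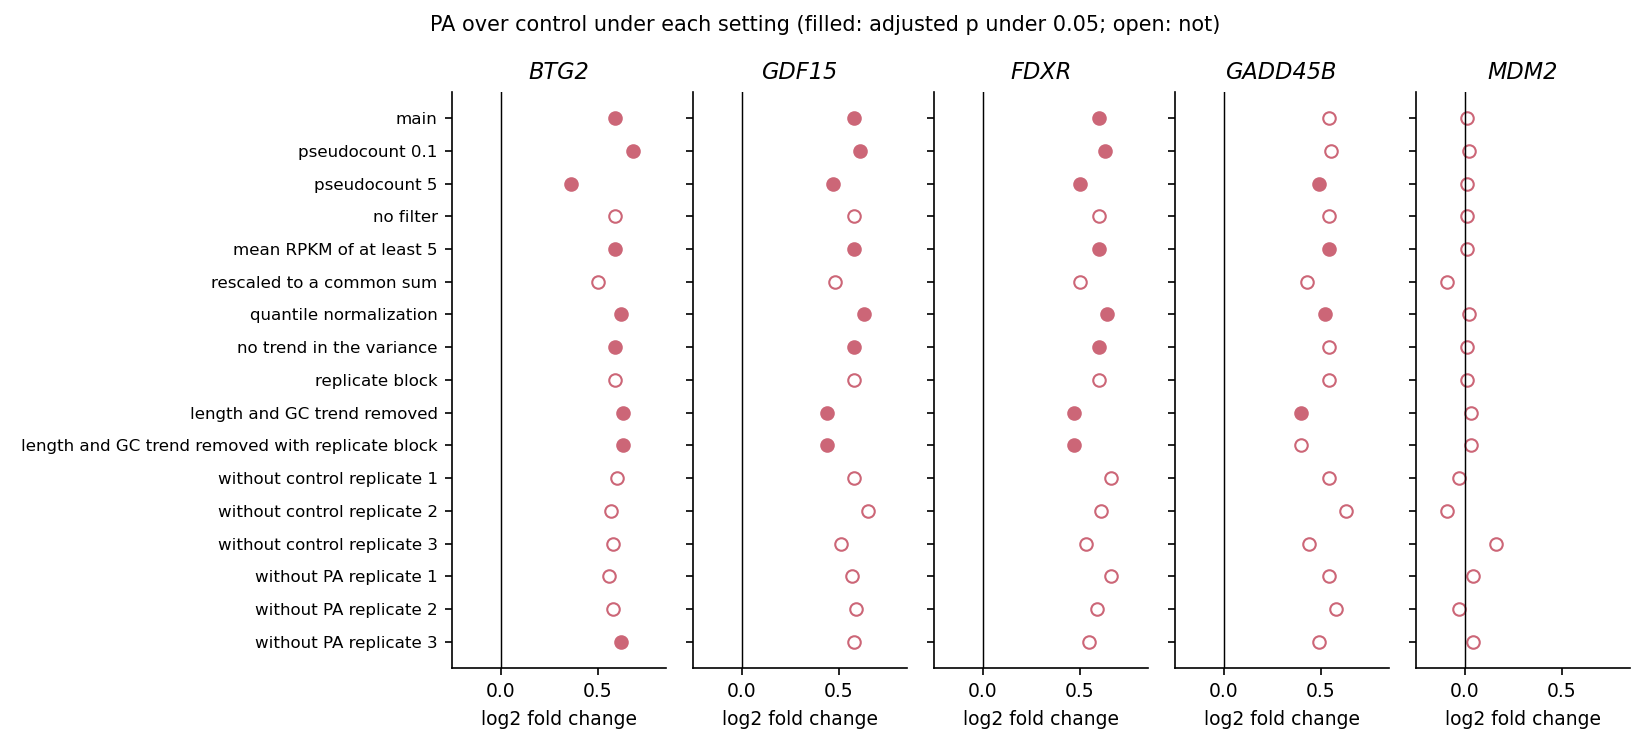
Log2 fold change of PA over control (x axis) for BTG2, GDF15, FDXR, GADD45B and MDM2 under the reported setting (main) and 16 alternatives (y axis). Filled points have an adjusted p under 0.05. The first 4 genes stay positive throughout, and MDM2 lies between -0.09 and 0.16.

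The 250 bases before the start of the genes that rose are shown in gene orientation, since these are the members whose transcripts differed. The match to the p53 consensus is in capitals where it falls in this stretch. FDXR had 2 windows, and the one with the closest match was picked for display. GDF15 and BTG2 each had 1 window. FDXR is at chr17:74872995-74873244 (minus strand), GDF15 at chr19:18385908-18386157 (plus strand) and BTG2 at chr1:203305269-203305518 (plus strand), all RefSeq, GRCh38.p14. Their GC contents were 67.6%, 58.4% and 74.8%. The GDF15 match lies after the start and is given above, and the BTG2 window held none by this rule.
FDXR: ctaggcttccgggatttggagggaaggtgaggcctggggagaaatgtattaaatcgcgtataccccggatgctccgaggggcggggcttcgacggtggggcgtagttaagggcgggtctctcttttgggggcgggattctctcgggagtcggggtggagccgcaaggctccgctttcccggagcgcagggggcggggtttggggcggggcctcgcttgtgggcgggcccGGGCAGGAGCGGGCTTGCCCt
GDF15: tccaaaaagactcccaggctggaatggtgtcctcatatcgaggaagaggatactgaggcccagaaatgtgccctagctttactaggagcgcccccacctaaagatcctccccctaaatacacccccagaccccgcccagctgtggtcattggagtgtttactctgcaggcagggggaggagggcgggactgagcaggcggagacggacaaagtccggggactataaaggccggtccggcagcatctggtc
BTG2: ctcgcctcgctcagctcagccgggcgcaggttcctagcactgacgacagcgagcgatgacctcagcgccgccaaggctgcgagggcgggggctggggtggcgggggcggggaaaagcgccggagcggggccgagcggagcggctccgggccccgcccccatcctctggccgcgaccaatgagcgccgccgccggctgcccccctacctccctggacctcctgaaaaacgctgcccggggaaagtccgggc

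Log2 fold changes of the genes with a match lay between -0.09 and 0.60, and differences between these genes were not tested. Beside FDXR and GDF15, DDB2 was at 0.41, SESN1 at 0.10, MDM2 at 0.01 and AEN at -0.09 on the log2 scale, and none of these 4 passed.

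Growth arrest and stress signalling genes had positive values in 7 of 7 tested members, of which BTG2 passed, with a median of 0.28. PLK2 (0.0047 ± 0.20) and BTG1 (0.06 ± 0.16) in this group were positive by less than their standard errors. They turned negative (-0.10 and -0.04) when libraries were rescaled to a common sum. GADD45B, a stress sensor that activates the kinase MAP3K4, was just outside the threshold. It was at 33.8, 38.2 and 29.2 RPKM in control and at 48.5, 46.4 and 52.6 RPKM in PA, without overlap. The log2 fold change was 0.54 ± 0.12 (limma adjusted p = 0.051). It passed in 4 of 16 alternatives: with a pseudocount of 5, with a minimum mean of 5 RPKM, with quantile normalization and with the length and GC trend removed.

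GADD45A, its relative that also binds PCNA, was the most abundant member, at 118.1, 129.5 and 118.0 RPKM in control and at 146.9, 138.3 and 192.9 RPKM in PA. The groups did not overlap, but PA 3 stood well above the other PA libraries, and the log2 fold change of 0.37 ± 0.14 did not pass (limma adjusted p = 0.147). GADD45G was listed at 0.13, 0.13 and 0 RPKM in control and at 0 in the PA libraries, below the level needed for a test.

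The other genes of this group did not pass. BTG1, the close relative of BTG2, averaged 11.9 ± 0.817 RPKM in control against 12.6 ± 2.83 RPKM in PA with overlapping groups. PLK2, a polo-like kinase, was at 33.0, 32.4 and 26.4 RPKM in control and at 42.7, 26.8 and 24.9 RPKM in PA, so that only PA 1 lay above the controls. PLK3, a kinase of the same family, was at 12.3 ± 1.38 and 13.5 ± 0.846 RPKM. SERTAD1, which binds CDK4 and E2F complexes, was higher in each PA library (7.85 to 8.92 RPKM) than in any control library (6.06 to 7.71 RPKM), with a log2 fold change of 0.28 ± 0.12 that did not pass (limma adjusted p = 0.199).

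**Figure D3:**
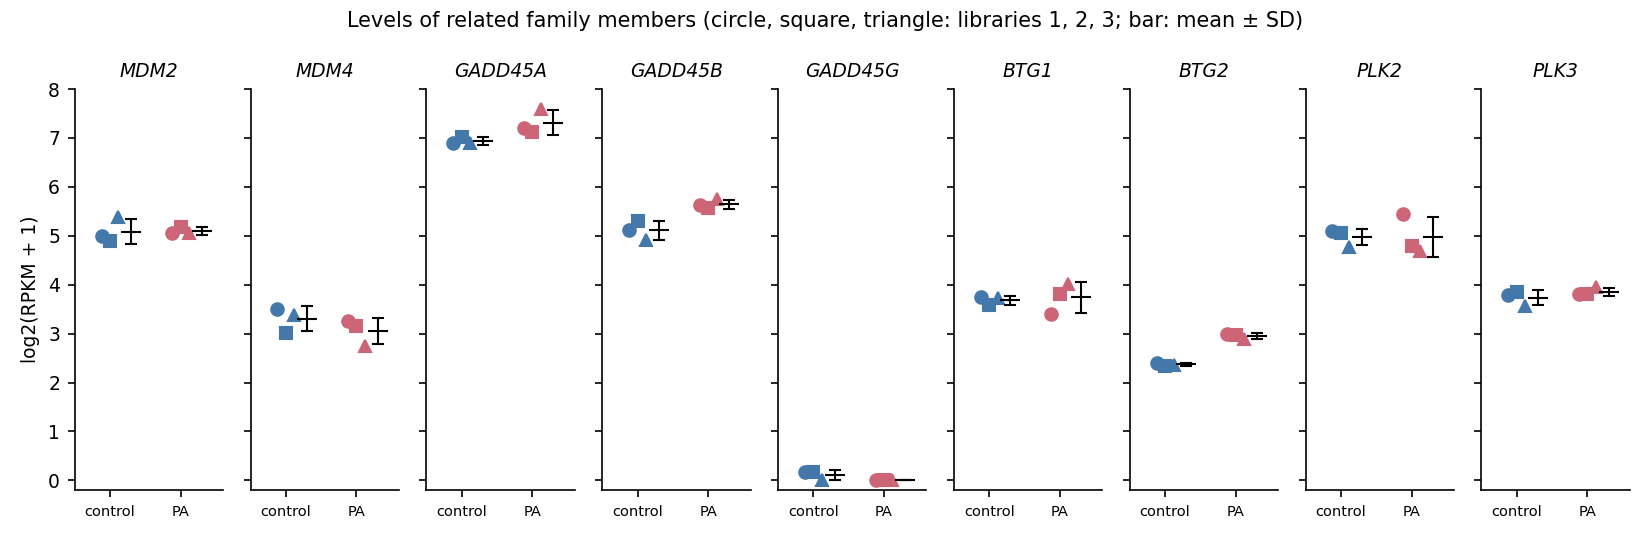
Levels of related members as log2(RPKM + 1) (y axis) in the 3 control and 3 PA libraries (x axis), with bars for the mean and SD of these values. GADD45A is the highest and GADD45G is at or near 0; BTG2 lies below BTG1 in both groups, and of these 9 genes BTG2 alone passed the threshold.

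The feedback arm of the pathway did not pass in any of its 4 members. MDM2 was at 31.0, 28.6 and 40.5 RPKM in control and at 32.3, 35.5 and 32.4 RPKM in PA, so that the PA values lay inside the control range. Its log2 fold change was 0.01 ± 0.14 (limma adjusted p = 0.961) and -0.09 with libraries rescaled to a common sum. MDM4, an MDM2 relative that binds p53 without degrading it, had the longest typical transcript of the members. It averaged 8.96 ± 1.69 RPKM in control against 7.40 ± 1.49 RPKM in PA, with overlap. PPM1D, a phosphatase that shuts down p53 signalling, was at 7.02, 6.61 and 7.75 RPKM in control and at 6.18, 6.43 and 6.21 RPKM in PA. These groups did not overlap, but the difference was small (log2 fold change -0.16 ± 0.11, limma adjusted p = 0.399). CCNG1, cyclin G1, which brings protein phosphatase 2A to MDM2, was the second most abundant member, at 108.1, 111.5 and 109.7 RPKM in control and 128.9, 117.7 and 140.0 RPKM in PA. Again without overlap, its log2 fold change of 0.23 ± 0.10 did not pass (limma adjusted p = 0.207).

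Of the 5 genes for DNA repair and nucleotide supply none passed in either direction, and 1 had an unadjusted p under 0.05. This was DDB2, which recognises ultraviolet lesions for nucleotide excision repair. It was at 22.6, 25.6 and 21.3 RPKM in control and at 27.0, 31.7 and 34.7 RPKM in PA, higher in each PA library. The log2 fold change was 0.41 ± 0.13 (limma adjusted p = 0.103). XPC, a damage sensor of the same repair pathway, differed by 0.13 ± 0.11 without overlap, from 9.49 to 9.82 RPKM in control and from 9.92 to 11.7 RPKM in PA. The largest overlap of XPC exons with a single listed gene on the opposite strand covers 23.8% of their bases. Others cover 8.61% and 6.63%, and the labels do not state whether counting used strand.

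RRM2B, the p53-inducible small subunit of ribonucleotide reductase, had the lowest fold change of the members. It was at 33.1, 17.8 and 31.6 RPKM in control and at 16.6, 20.9 and 20.1 RPKM in PA. Control 2 fell among the PA libraries and away from the other control libraries. The log2 fold change was -0.45 ± 0.23 (limma adjusted p = 0.247). With each library left out in turn it ran from -0.73 without control 2 to -0.30 without control 1 (limma adjusted p = 0.0675 and 0.55), and it was -0.33 without control 3. POLH, a polymerase that copies past lesions, averaged 10.8 ± 0.789 RPKM in control against 11.5 ± 1.68 RPKM in PA. AEN, a nuclease that takes part in apoptosis, averaged 36.2 ± 2.30 RPKM in control against 34.1 ± 5.16 RPKM in PA, with PA 3 the lowest library at 28.2 RPKM.

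Survival and death genes went both ways, with 7 positive and 3 negative values among 10 tested and none past the threshold. TP53I3, a quinone oxidoreductase-like enzyme, was at 14.2, 17 and 13.2 RPKM in control and at 20.4, 19.8 and 20 RPKM in PA, without overlap. Its log2 fold change was 0.43 ± 0.12 (limma adjusted p = 0.0774), and it passed in 1 of 16 alternatives, with the length and GC trend removed (0.34, limma adjusted p = 0.034). Rescaled to a common sum it was at 0.32 (limma adjusted p = 0.134). TP53I11, also called PIG11, was at 15.4, 14.0 and 12.4 RPKM in control and at 24.2, 18.1 and 16.1 RPKM in PA. PA 1 stood above the other PA libraries, and the log2 fold change of 0.44 ± 0.16 did not pass (limma adjusted p = 0.142).

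PERP, a membrane protein of desmosomes, was at 15.6 to 17.6 RPKM in control and 19 to 21.8 RPKM in PA. Its log2 fold change was 0.25 ± 0.11 (limma adjusted p = 0.182). It passed in 1 of 16 alternatives, with the length and GC trend removed (0.42, limma adjusted p = 0.0302), and was at 0.15 rescaled to a common sum (limma adjusted p = 0.418). DRAM1, a lysosomal membrane protein that promotes autophagy, was lower in each PA library, at 18.5, 17.7 and 24.9 RPKM in control and 13.2, 17.5 and 16.1 RPKM in PA. The gap between the groups was narrow, and the log2 fold change of -0.36 ± 0.16 did not pass (limma adjusted p = 0.212).

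TRIAP1, a mitochondrial protein that carries phosphatidic acid and protects from apoptosis, varied most in PA relative to control. It was at 38.2, 37.6 and 40.2 RPKM in control and at 30.9, 35.8 and 54.5 RPKM in PA, so that PA 1 and PA 2 lay below the controls and PA 3 above them. The remaining members overlapped between groups. PHLDA3, which restrains AKT, had means of 16.8 and 17.1 RPKM, PIDD1, the scaffold that activates caspase-2, 11.7 and 13 RPKM, and CYFIP2, a subunit of the WAVE actin complex, 5.74 and 6.64 RPKM in control and PA. ZMAT3, an RNA-binding zinc finger protein, had means of 6.27 and 5.54 RPKM. TP53INP1, which acts in autophagy and cell death, had means of 3.67 and 3.24 RPKM, and its log2 fold change of -0.13 was 0.06 with the length and GC trend removed. SPATA18, a factor of mitochondrial quality control, was at 0.29 to 0.72 RPKM in control and 0.38 to 0.71 RPKM in PA, too low for a test.

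**Figure D4:**
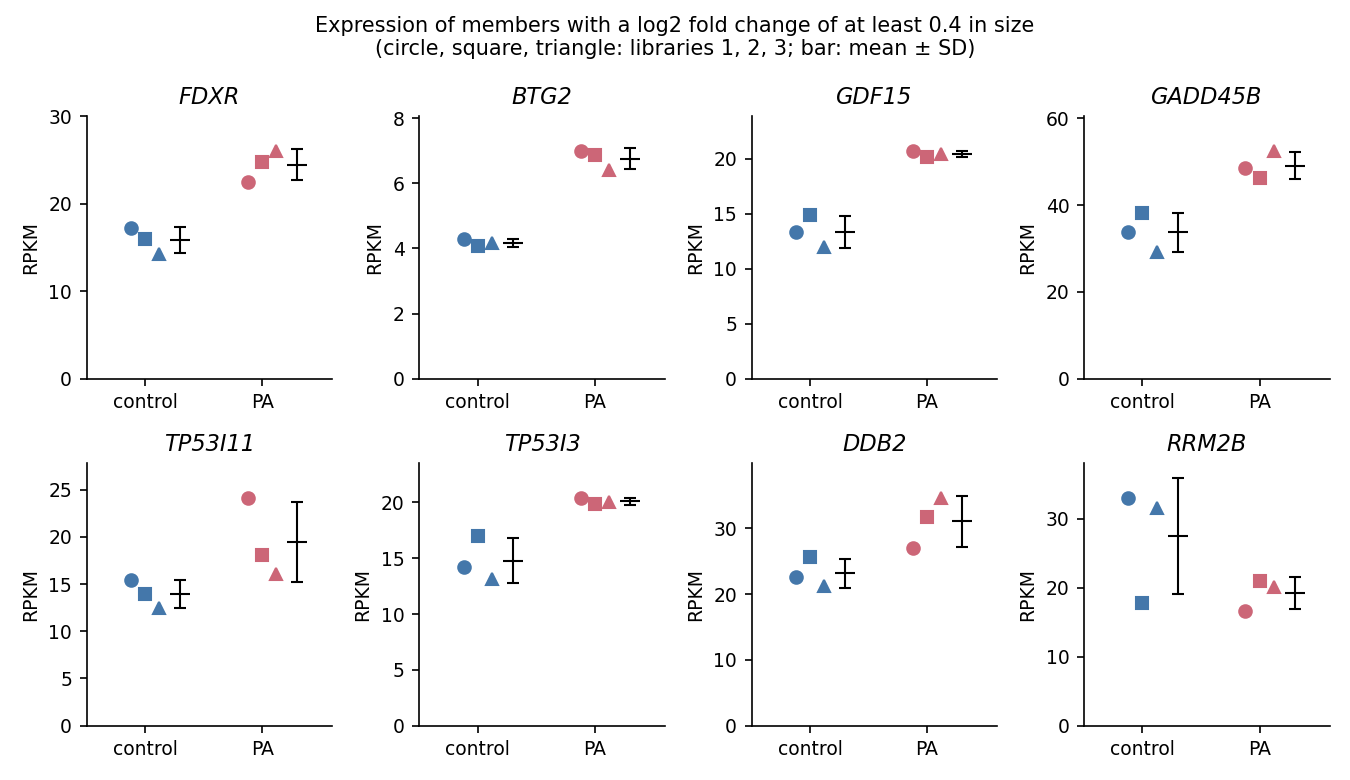
RPKM (y axis, from 0) in each control and PA library (x axis) for the 8 members whose log2 fold change was at least 0.4 in size, with bars for the mean and SD. The PA values lie above all control values in the first 7 panels. In RRM2B, control 2 (17.8 RPKM) lies among the PA libraries (16.6 to 20.9 RPKM).

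The other metabolic targets did not pass. SESN1, a sestrin that restrains mTORC1, averaged 3 ± 0.407 RPKM in control against 3.30 ± 0.642 RPKM in PA. TIGAR, a phosphatase that lowers fructose-2,6-bisphosphate and so slows glycolysis, was at 15.3 ± 2.27 and 13.6 ± 1.62 RPKM. Its exons share 42.6% of their bases with another listed gene on the same strand, which makes its level uncertain. Both genes overlapped between groups.

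Levels per transcript length spanned a wide range. GADD45A (140.6 RPKM over all libraries) and CCNG1 (119.3) stood apart from the rest, 20 members had means between 10 and 50 RPKM, 8 between 1 and 10, and 2 were below 1. The median of the tested members was 16.8 RPKM, against 12.4 RPKM for all genes tested. The median coefficient of variation within a group was 10.9% in control and 10.3% in PA. The largest were those of PLK2 (31%) and TRIAP1 (30.8%) in PA and of RRM2B (30.5%) in control, among tested members. The median deviation of the tested members from the control mean was 0.18, 0.10 and 0.21 log2 units in PA 1, PA 2 and PA 3, where that of all genes was 0.03, -0.02 and -0.04.

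Of 27 tested regulators of p53 none passed, 6 had an unadjusted p under 0.05, against 25.9% of all genes tested in either direction, and the median was -0.12. The values farthest from 0 were -0.67 for EP300 and -0.66 for CREBBP, the acetyltransferases that act as p53 coactivators, and 0.53 for CDKN2A, whose ARF product binds MDM2. The groups overlapped for EP300 and CREBBP, with PA 3 the lowest library (7.07 and 7.53 RPKM), and without PA 3 their values were -0.36 and -0.35. For CDKN2A the groups did not overlap (limma adjusted p = 0.0781), but its value is for the whole gene and not for ARF alone. RPKM measures transcripts and not the amount, modification or activity of p53.

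Over all genes tested, 2.84% rose and 1.97% fell, with a median of -0.02. Of 40 further p53 targets tested, 3 rose (7.5%) and 2 fell, with a median of 0.12. CDKN1A (0.51), PLTP (0.66), a phospholipid transfer protein, and IGFBP3 (0.55), which binds insulin-like growth factors, rose. KITLG (-0.74), the ligand of the receptor KIT, and HSPA4L (-0.66), a heat shock protein of the HSP110 family, fell. Most of these calls were also lost with a library left out. CDKN1A, PLTP and KITLG passed in 1 of 6 fits with a library left out, and IGFBP3 and HSPA4L in 0 of 6. SCO2 had more than 1 row and was not used. Of 13 ATF4 and CHOP targets 1 rose (7.69%), TRIB3 (0.67), a pseudokinase, with a median of 0.13. Of 17 tested immediate early genes 5 rose (29.4%) and 0 fell, with a median of 0.32: EGR1 (1.25), JUNB (0.94), IER2 (0.66), CCN1 (0.62) and ZFP36 (0.55). With each library left out in turn, EGR1 passed in 5 of 6 fits and JUNB in 3 of 6. TRIB3 and CCN1 passed in 1 of 6, and IER2 and ZFP36 in 0 of 6.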

How the data were processed

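RNA of 6 AC16 libraries, 3 control and 3 PA, was measured by messenger RNA sequencing. The values are RPKM with 2 decimals per gene, as deposited by the authors, 1 table per library. Per the submitters' processing notes, the tools were FastQC, fastp, HISAT2, StringTie and RSEM, with hg19 as build; their roles, gene models, strand setting and handling of shared reads are not stated. A count model was not applied to RPKM, depth is unknown and no counting interval is given.

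The test was limma 3.58.1 under R 4.3.3 (eBayes with trend, two-sided, no covariates) on log2(RPKM + 1), with a minimum mean of 1 RPKM over all libraries and Benjamini-Hochberg adjustment over 14159 genes at 0.05. Exact permutation of 3 and 3 libraries has a smallest p of 0.1, so it was left out. Members and gene lists were chosen with earlier results of these data known, so lists are described by counts and medians without a test. All members are named. Those past the threshold or with a log2 fold change of at least 0.4 in size are given in every library, and from other lists the members past the threshold or, where none passed, the 3 with the largest values. Lengths, GC content and exon overlaps came from GENCODE 29 (median over protein-coding transcripts, 95.2% of tested genes), whose assembly differs from the build named. Exons of 12 members overlap another listed gene. Trends with length and GC were removed with splines of 4 degrees of freedom. On simulated data made from these 14159 genes with 200 changed per run, the PA against control test found 14% of changes of 0.5 log2 units, 74.9% of 1 and 95.5% of 2, and 5.04% of its calls were false. The simulated noise was independent between genes, and changes were planted only in genes with a mean log2(RPKM + 1) over 3. Shifts shared by many genes of a library were not simulated, so these shares may not hold for the real libraries. Alternatives covered pseudocount, filter, scaling, variance model, replicate block, length and GC, and each library left out. A further gene and its values are not reported here.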

Additional observations from a re-analysis of the deposited data

How the results depend on the processing

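Across 16 alternatives BTG2, FDXR, GDF15 and GADD45B kept their direction, as did 22 of the 30 tested members, while the number of calls moved. No p53 target was called lower under any of them. The count called higher was 0 without a filter, 0 rescaled to a common sum, 0 with the replicate block, 6 with the length and GC trend removed, and 0 to 1 with a library left out. Calls over all genes numbered 72 without a filter, 98 with the replicate block and 1875 with the trend removed, and 10 to 364 with a library left out. Rescaled to a common sum, 39% of all calls were higher, against 59% as deposited, the median of all genes moved from -0.02 to -0.11 and that of the p53 targets from 0.11 to 0.02. With a library left out the latter ran from 0.11 to 0.15.

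The labels do not say whether the replicate numbers pair the libraries. Deviations of same-numbered libraries correlated at 0.157, -0.0144 and 0.0371, and those of differently numbered libraries between -0.179 and 0.121. With 3 libraries per group these values cannot settle whether they are paired. With the block the limma adjusted p was 0.0659 for BTG2, 0.0687 for FDXR and 0.0653 for GDF15, at the same log2 fold changes. With the trend removed and the replicate block, 3 p53 targets were called, as without either. Signs turned on rescaling to a common sum for MDM2 (-0.09), PLK2 (-0.10), PHLDA3 (-0.09), TRIAP1 (-0.08), BTG1 (-0.04) and POLH (-0.02), and with the trend removed, with or without the block, for PHLDA3 (-0.12) and TP53INP1 (0.06). With a library left out the values ran from -0.09 to 0.16 for MDM2, -0.23 to 0.15 for PLK2, -0.09 to 0.10 for PHLDA3, -0.21 to 0.19 for TRIAP1, -0.08 to 0.23 for BTG1, -0.01 to 0.19 for POLH and -0.17 to 0.03 for AEN. The cause of these changes was not tested.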
